A study of Mus musculus with 10 samples.

Results

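The 9 genes of hepatic insulin signalling were followed in livers of mice with lung tumours, with and without cachexia. They were Insr, Grb14, Irs1, Irs2, Pik3r1, Akt1, Akt2, Foxo1 and Foxo3, and were picked by name as the receptor, its inhibitor, its substrates and the PI3K, AKT and FOXO genes behind them. All 9 had a row among the 43629 genes counted, and all 9 passed the filter on low counts that 14143 genes passed. The livers came from 10 adult male KL mice, a Cre-dependent tumour model that carries Lkb1 flox/flox on a background crossed to FVB, and all had received intranasal adenovirus with Cre under the CMV promoter. Cre thus entered through the airway, and recombination in the liver was not measured here. The 5 NCACS mice (mice 11 to 15) had weight changes between -3 and -14% and the 5 CACS mice (mice 16 to 20) between -29 and -33%. Both groups bore tumours, so the comparison is between 2 outcomes of the same disease, and livers without a tumour were not analysed here. The paper uses CACS for cancer anorexia-cachexia syndrome, assigned by weight lost from the peak, and NCACS for mice without it. The labels give no batch, feeding state or hour of collection, and food intake was not examined here.

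Insulin binding turns on the tyrosine kinase of the insulin receptor, which phosphorylates the substrates IRS1 and IRS2. These recruit PI3K, whose lipid product brings the kinases AKT1 and AKT2 to the membrane. Active AKT phosphorylates FOXO1 and FOXO3 and keeps them out of the nucleus, which in hepatocytes lowers transcription of genes for glucose output. FOXO1 in turn is known to raise Irs2, Igfbp1 and G6pc, so several of these genes sit downstream of the pathway as well as inside it. Transcript counts do not report phosphorylation, on which the activity of this pathway largely rests.

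Total counts ranged from 31945328 to 38306888 per NCACS liver and from 31459179 to 40746178 per CACS liver. Levels are given as CPM, counts scaled to library size after TMM scaling, and differences as the log2 fold change of CACS over NCACS. A gene was called when edgeR's quasi-likelihood test gave an adjusted p under 0.05 after Benjamini-Hochberg adjustment over the 14143 genes. By that rule 538 genes were called, 3.8% of those tested (1.89% higher and 1.92% lower). The hepatocyte marker Alb stood between 45740 and 107300 CPM in the 10 livers. The summed level of 7 hepatocyte markers was 72240 to 123200 CPM in NCACS and 115900 to 138500 CPM in CACS livers, with 1 called, Hnf4a, higher. Alb made up the largest part of this sum. Of the 7, 5 had a fold change above 0 and 2, Ttr and Apoa2, below 0. The summed level of 7 Kupffer cell markers was 169.5 to 292.1 CPM in NCACS and 103.5 to 212.5 CPM in CACS livers, with 1 called, Cd5l, lower, and all 7 had a fold change below 0. No marker of either list was at 0 in all livers. In whole liver, a change in the number of cells of a type cannot be told apart from a change in RNA per cell. NCACS mouse 15 stood apart in clock genes, with Dbp, a clock output factor, at 1.27 CPM against 52.1 to 82.9 CPM in the other NCACS livers and 18.8 to 58.8 CPM in CACS livers. Clock genes also differed between the groups before adjustment: 4 of 8 had an unadjusted p under 0.05, beside 21.6% of all genes, and the lowest adjusted p among the 8 was 0.0930 in edgeR's test. Nr1d1, a clock repressor, had a log2 fold change of -1.65, and Per1 and Per2, also clock repressors, of 1.23 and 1.21.

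Because Irs2, Irs1, Igfbp1 and G6pc are the genes here whose windows held the letters CAAAACA, the core of the insulin response sequence through which FOXO1 acts, their promoters are shown first. The sequences are the 250 bases before the RefSeq start on GRCm38.p6, 5′ to 3′ in the direction of transcription, and come from the C57BL/6J reference and not from the FVB-crossed mice. The windows are chr8:11008930-11009179 (Irs2) and chr1:82291440-82291689 (Irs1) on the reverse strand, and chr11:7197537-7197786 (Igfbp1) and chr11:101367466-101367715 (G6pc) on the forward strand. Capitals mark the motif CAAAACA on either strand and the palindrome CACGTG, the E-box that clock factors among others bind.
Irs2: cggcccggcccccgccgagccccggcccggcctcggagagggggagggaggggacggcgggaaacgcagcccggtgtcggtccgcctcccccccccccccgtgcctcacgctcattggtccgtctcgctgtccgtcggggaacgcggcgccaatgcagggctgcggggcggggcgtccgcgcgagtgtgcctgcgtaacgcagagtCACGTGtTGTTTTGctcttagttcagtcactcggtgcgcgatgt
Irs1: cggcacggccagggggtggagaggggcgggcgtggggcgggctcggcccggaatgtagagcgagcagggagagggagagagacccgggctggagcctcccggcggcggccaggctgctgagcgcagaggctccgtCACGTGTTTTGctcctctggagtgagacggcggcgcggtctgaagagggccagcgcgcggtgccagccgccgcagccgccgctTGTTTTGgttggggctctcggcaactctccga
Igfbp1: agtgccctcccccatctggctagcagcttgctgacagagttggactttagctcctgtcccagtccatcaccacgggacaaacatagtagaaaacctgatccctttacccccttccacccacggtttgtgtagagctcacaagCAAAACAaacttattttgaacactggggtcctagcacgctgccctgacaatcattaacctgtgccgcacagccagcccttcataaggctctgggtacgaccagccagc
G6pc: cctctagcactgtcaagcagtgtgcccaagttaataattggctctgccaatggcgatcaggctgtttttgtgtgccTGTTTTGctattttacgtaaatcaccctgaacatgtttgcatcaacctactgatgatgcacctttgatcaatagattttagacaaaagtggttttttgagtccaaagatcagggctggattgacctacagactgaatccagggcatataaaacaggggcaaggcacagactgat

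The insulin response core was present on either strand in 5.56% of 32851 promoter windows of this length, the E-box in 6.02% and the FOXO binding motif GTAAACA in 3.17%. In Irs2 the insulin response core began 37 bases before the start and the E-box 44 bases before it. Irs1 held this core at 111 and again at 32 bases before the start, and its E-box, at 115, overlapped the first. Igfbp1 held the core at 108 and G6pc at 174 bases before the start. The window of Pck1, the other gene of glucose output that was searched, held none of the 3 motifs. Bases further upstream were not searched for any gene. RefSeq windows were found for 8 of the 9 members. Of these, Akt1 held the FOXO binding motif 161 bases before one of its starts. The windows of Foxo1 and Pik3r1, the members that were called, held none of the 3 motifs and are shown because the results turn on them. Pik3r1 has a window before each of 2 annotated starts, the outer and the inner, and the counts are per gene and do not separate their transcripts. The windows are chr3:52268087-52268336 on the forward strand, and chr13:101768218-101768467 and chr13:101692631-101692880 on the reverse strand.
Foxo1: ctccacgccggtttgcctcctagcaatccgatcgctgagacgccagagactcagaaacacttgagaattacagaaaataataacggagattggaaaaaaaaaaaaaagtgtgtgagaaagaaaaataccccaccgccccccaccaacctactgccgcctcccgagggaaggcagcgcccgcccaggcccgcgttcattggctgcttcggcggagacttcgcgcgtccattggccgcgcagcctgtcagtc
Pik3r1 outer start: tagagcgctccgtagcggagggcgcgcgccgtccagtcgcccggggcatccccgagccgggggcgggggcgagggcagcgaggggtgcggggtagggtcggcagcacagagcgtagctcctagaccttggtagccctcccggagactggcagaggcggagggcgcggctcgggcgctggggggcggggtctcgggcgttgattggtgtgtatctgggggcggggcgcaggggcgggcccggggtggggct
Pik3r1 inner start: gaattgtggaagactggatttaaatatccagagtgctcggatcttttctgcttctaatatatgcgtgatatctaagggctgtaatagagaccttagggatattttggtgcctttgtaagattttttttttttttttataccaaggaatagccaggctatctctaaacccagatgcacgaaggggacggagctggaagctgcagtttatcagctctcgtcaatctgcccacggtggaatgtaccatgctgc

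Among the members, Pik3r1 and Foxo1 rose in CACS livers and the other 7 were not called. This was 2 of 9 genes (22.2%), both higher, beside 3.8% of all genes called in either direction and 1.89% called higher. The members were chosen with earlier results of these data known, so this share is a description and no independent evidence. The groups did not overlap for these 2 members, as for 7.07% of all genes tested. The median log2 fold change of the 9 was 0.11, beside -0.01 over all genes. The plot of CPM by liver shows the separation for these 2 genes and the overlap for the rest.

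**Figure D1:**
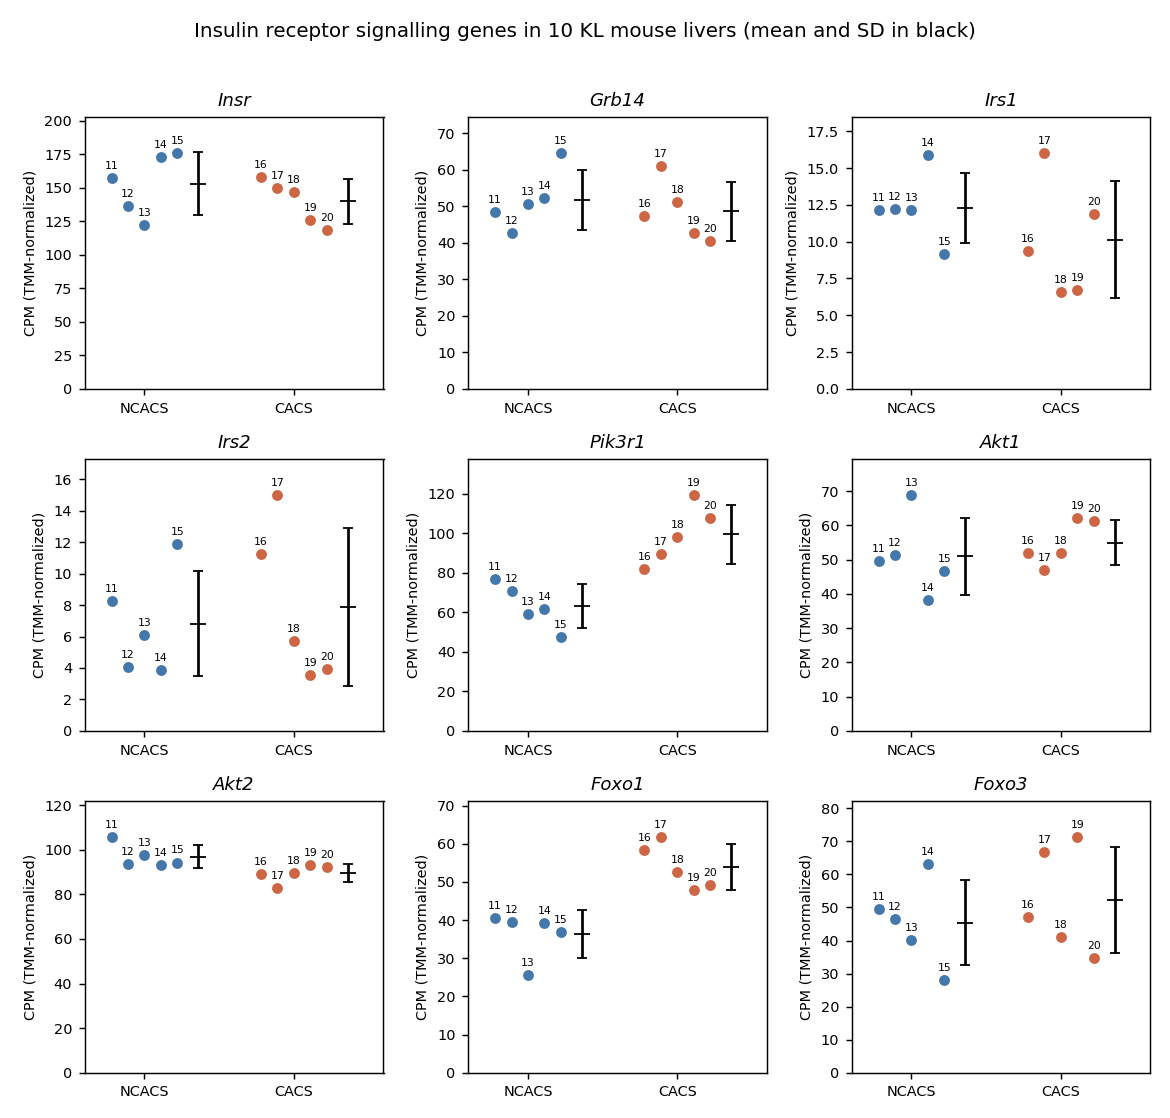
Level of each member in each liver, in TMM-normalized CPM on a linear axis from 0. Points are livers with their mouse numbers (blue NCACS, orange CACS), and the black bar is the mean with the SD (n = 5). Pik3r1 and Foxo1 have every CACS liver above every NCACS liver, while Irs2 spreads from 3.58 to 15.03 CPM with both groups at both ends.

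Insr (ENSMUSG00000005534, chr8:3122061-3279617 of GRCm38, reverse strand) encodes the receptor. Its level ranged from 122.4 to 176 CPM in NCACS and from 118 to 158 CPM in CACS livers, with means of 153 ± 23.3 and 139.9 ± 16.9 CPM (SD, n = 5). 4 CACS livers lay inside the NCACS range. The log2 fold change was -0.13 (standard error 0.126, 95% interval -0.40 to 0.15, adjusted p = 0.592 from edgeR's test), and was between -0.20 (NCACS mouse 13 left out) and -0.07 (NCACS mouse 15 left out) in fits on 9 livers. Grb14 (chr2:64912476-65024987, reverse strand) encodes an adaptor that binds the activated receptor and inhibits its kinase. It ranged from 42.6 to 64.7 CPM in NCACS and from 40.4 to 61.1 CPM in CACS livers. Its log2 fold change was -0.09 (95% interval -0.39 to 0.20, adjusted p = 0.750 from edgeR's test), and it turned to 0.0061 once NCACS mouse 15, its highest liver, was left out. The log2 ratio of Insr to Grb14, both per kilobase of merged exons, was 0.63 ± 0.20 in NCACS and 0.60 ± 0.16 in CACS livers (SD, n = 5). The groups overlapped for this ratio.

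Irs1 and Irs2 encode the main substrates of the receptor in liver, and both were far lower per kilobase than the other members. Irs1 (chr1:82233101-82291416, reverse strand) ranged from 9.17 to 15.9 CPM in NCACS and from 6.59 to 16.1 CPM in CACS livers. 3 NCACS livers stood between 12.1 and 12.2 CPM, whereas the CACS livers held both the highest and the lowest level of the 10. Its log2 fold change was -0.28 (95% interval -0.81 to 0.25, adjusted p = 0.537 from edgeR's test). It was -0.51 once CACS mouse 17 was left out, and -0.16 to -0.17 once CACS mouse 18 or 19 or NCACS mouse 14 was.

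Irs2 (chr8:10984681-11008458, reverse strand) was the most variable member. In NCACS mice 11 to 15 it stood at 8.28, 4.03, 6.11, 3.85 and 11.9 CPM. In CACS mice 16 to 20 it stood at 11.2, 15.03, 5.71, 3.58 and 3.95 CPM. High and low livers were present in both groups, and the CACS range held the whole NCACS range. The log2 fold change was 0.21 (standard error 0.435, 95% interval -0.74 to 1.17, adjusted p = 0.821 from edgeR's test), which leaves room for a change of either sign. Leaving out the highest CACS liver, mouse 17, turned it to -0.15, and leaving out the highest NCACS liver, mouse 15, raised it to 0.51.

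The 3 livers with the highest Irs2, CACS mice 17 and 16 and NCACS mouse 15, also had the 3 highest levels of Igfbp1, which encodes a secreted IGF binding protein that insulin represses. Igfbp1 stood at 123, 254 and 95.7 CPM in these 3 livers and at 5.75 to 52.7 CPM in the other 7. G6pc, the catalytic subunit of glucose-6-phosphatase, stood at 1105, 727 and 432 CPM in the same 3 livers, which were among the 4 highest of the 10, with CACS mouse 18 at 534 CPM. These rankings were noticed in the data and are a description over 10 livers, with no test. Between groups Igfbp1 had a log2 fold change of 1.595 (95% interval -0.27 to 3.47, adjusted p = 0.305 from edgeR's test). The 3 livers differed in their clock genes, with Dbp at 34.3, 18.8 and 1.27 CPM, and the part of feeding state or hour of collection in their Irs2 level was not tested.

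**Figure D2:**
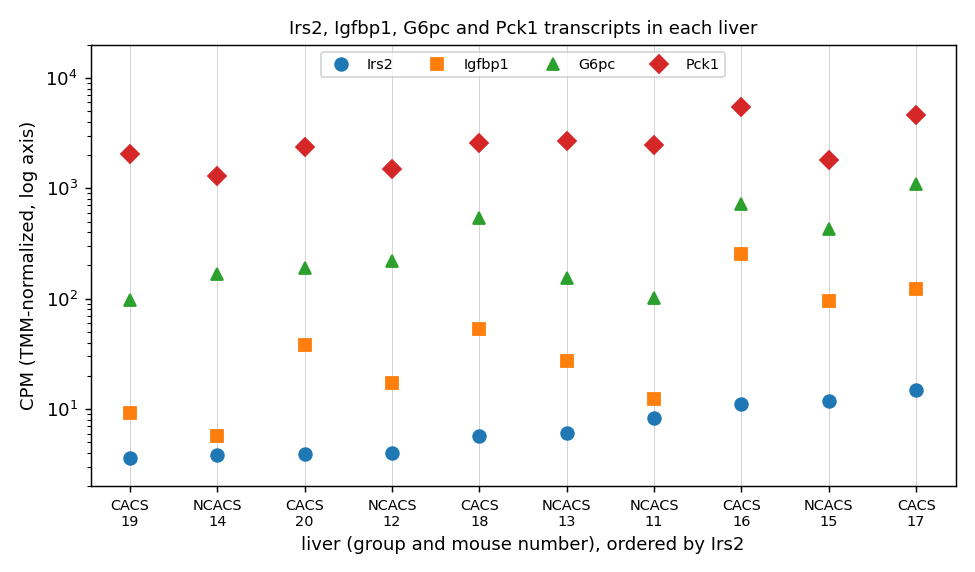
Level of Irs2, Igfbp1, G6pc and Pck1 in each of the 10 livers, in TMM-normalized CPM on a log axis, with livers ordered from lowest to highest Irs2. The 3 livers on the right have Irs2 between 11.2 and 15.03 CPM and the 3 highest Igfbp1 levels, and include 1 NCACS liver.

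Pik3r1 (ENSMUSG00000041417, chr13:101680563-101768217, reverse strand) encodes the alpha regulatory subunit of PI3K, which binds phosphorylated IRS proteins and both stabilizes and restrains the catalytic subunit. In NCACS mice 11 to 15 it stood at 76.7, 70.7, 58.9, 61.7 and 47.4 CPM. In CACS mice 16 to 20 it stood at 81.9, 89.55, 98.3, 119.5 and 107.9 CPM. Every CACS liver was above every NCACS liver, with means of 63.1 ± 11.3 and 99.4 ± 14.8 CPM (SD, n = 5). The log2 fold change was 0.66 (standard error 0.141, 95% interval 0.35 to 0.97, unadjusted p = 0.000611, adjusted p = 0.0323 from edgeR's test), a ratio of means of 1.58. The two-sided exact permutation test over mice gave p = 0.00794, the smallest that the assignments of 5 against 5 mice allow. The call was lost in edgeR's test without NCACS mouse 13, 14 or 15 or without CACS mouse 18, 19 or 20, where the log2 fold change stayed between 0.57 and 0.66 and the adjusted p between 0.0515 and 0.0685.

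The other PI3K subunits gave no such separation. Another regulatory subunit, Pik3r2, was at -0.03 on the log2 scale of CACS over NCACS (adjusted p = 0.922), and the related Pik3r3 at -0.22 (adjusted p = 0.704, both from edgeR's test). The catalytic subunits Pik3ca and Pik3cb had log2 fold changes of -0.09 and 0.19 (adjusted p = 0.676 and 0.312 from the same test). As a share of the 3 regulatory transcripts, each per kilobase of merged exons, Pik3r1 made up 46.1 to 55.6% in NCACS and 61.2 to 65.8% in CACS livers. This share was computed after the rise of Pik3r1 had been seen and describes the same rise. Relative to the sum of Pik3ca and Pik3cb per kilobase, Pik3r1 was at 0.702 to 1.23 in NCACS and 1.21 to 1.99 in CACS livers, where the groups overlapped narrowly.

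Akt1 and Akt2 encode the serine kinases that PI3K activates, and Akt2 is the form most tied to glucose handling in liver. Akt2 (chr7:27591552-27640826, forward strand) was the steadiest member. It stood between 93.1 and 105.9 CPM in NCACS and between 82.9 and 93.3 CPM in CACS livers, with means of 96.9 ± 5.30 and 89.4 ± 4.02 CPM (SD, n = 5), and 4 of the 5 CACS livers lay below every NCACS liver. The log2 fold change was -0.12 (95% interval -0.28 to 0.05, unadjusted p = 0.144, adjusted p = 0.390 from edgeR's test), and the two-sided exact permutation test over mice gave p = 0.0159 before any adjustment. The interval leaves out a fall as large as the rise of Pik3r1. Akt1 (chr12:112653821-112674884, reverse strand) ranged from 38.3 to 69.0 CPM in NCACS and from 47.1 to 62.3 CPM in CACS livers, with a log2 fold change of 0.11 (95% interval -0.21 to 0.42, adjusted p = 0.720 from edgeR's test). That value depended on single livers, with 0.02 once NCACS mouse 14 was left out and 0.24 once NCACS mouse 13 was. The log2 ratio of Akt2 to Akt1 per kilobase was 0.15 ± 0.29 in NCACS and -0.09 ± 0.11 in CACS livers (SD, n = 5), and the groups overlapped.

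Foxo1 (ENSMUSG00000044167, chr3:52268336-52353221, forward strand) encodes the factor that drives Igfbp1 and G6pc when insulin is low. In NCACS mice 11 to 15 it stood at 40.7, 39.5, 25.6, 39.1 and 36.9 CPM. In CACS mice 16 to 20 it stood at 58.3, 61.9, 52.5, 47.95 and 49.2 CPM. The groups did not overlap, and NCACS mouse 13 lay well below the other NCACS livers. Means were 36.4 ± 6.18 and 54.0 ± 5.97 CPM (SD, n = 5). The log2 fold change was 0.57 (standard error 0.131, 95% interval 0.28 to 0.85, unadjusted p = 0.000997, adjusted p = 0.0375 from edgeR's test), and the two-sided exact permutation test over mice gave p = 0.00794. The call lay close to the threshold. It was kept without NCACS mouse 13 (log2 fold change 0.47, adjusted p = 0.0395 from edgeR's test) and lost without any one of the other 9 mice, NCACS 11, 12, 14 and 15 and CACS 16 to 20, where the log2 fold change was 0.52 to 0.61 and the adjusted p 0.0576 to 0.0784.

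In each fit that left out 1 mouse, at most 1 member was called. DESeq2 gave Pik3r1 and Foxo1 adjusted p-values of 0.00135 and 0.00286. Hnf4a, the hepatocyte marker called higher, had a log2 fold change of 0.50, and its part in the rises of Pik3r1 and Foxo1 was not tested. Nor was that of the clock genes, of which Per1 stood at 5.84 to 66.8 CPM in NCACS and 40.6 to 131 CPM in CACS livers and Nr1d1 at 38.0 to 200.5 and 14.3 to 72.3 CPM.

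Foxo3 (chr10:42181841-42276755, reverse strand), another FOXO factor under the control of AKT, ranged from 27.95 to 63.05 CPM in NCACS and from 34.9 to 71.4 CPM in CACS livers. Its log2 fold change was 0.20 (standard error 0.236, 95% interval -0.31 to 0.72, adjusted p = 0.670 from edgeR's test), which includes the size of the Foxo1 rise. It was lowest, 0.06, with CACS mouse 19 left out and highest, 0.35, with NCACS mouse 14 left out. A difference between the 2 FOXO genes was not tested. The log2 ratio of Foxo1 to Foxo3 per kilobase was -0.49 ± 0.44 in NCACS and -0.10 ± 0.44 in CACS livers (SD, n = 5), and the groups overlapped. NCACS mouse 15, the liver that stood apart in clock genes, had the lowest Foxo3 of the 10.

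**Figure D3:**
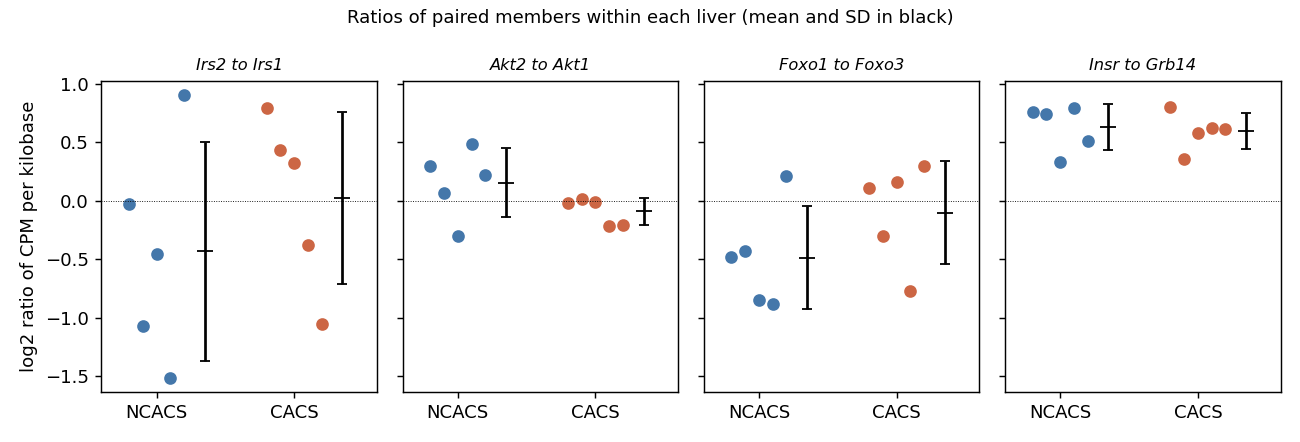
Log2 ratio of 4 pairs of related members within each liver, from CPM per kilobase of merged exons. Points are livers and the black bar is the mean with the SD (n = 5). Irs2 to Irs1 spans -1.51 to 0.90, the widest of the 4 pairs, and the groups overlap in every pair.

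Per kilobase of merged exons, and averaged over the 10 livers, the order of levels was Akt2, Akt1, Insr, Pik3r1, Grb14, Foxo3, Foxo1, Irs1 and Irs2. Akt2 stood at 13.1 ± 0.833 and Irs2 at 1.17 ± 0.642 CPM per kilobase (SD, n = 10). The order differed between the groups. In CACS livers Akt1 came before Akt2 (13.4 ± 1.603 and 12.5 ± 0.565), Foxo3 before Grb14 (6.90 ± 2.12 and 6.76 ± 1.13) and Irs2 before Irs1 (1.25 ± 0.795 and 1.11 ± 0.434), and in NCACS livers Grb14 came before Pik3r1 (7.20 ± 1.13 and 6.26 ± 1.12 CPM per kilobase, SD, n = 5). Foxo1 exceeded Irs1 in 10 of 10 livers. Every other pair of neighbours in the order changed places in at least 2 livers, among them Akt2 and Akt1, which were each the higher in 5 livers. The spread within groups differed as much as the levels did. The SD of Irs2 within groups, 0.805 on the log2 CPM scale, was larger than that of 95.3% of tested genes of similar level, and that of Akt2, 0.0716, was larger than that of only 1.13%.

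The genes with profiles most like the 3 members that varied most were found by the root-mean-square difference of log2 CPM, each gene centred on its mean over the 10 livers, among 9234 genes of at least 5 CPM. For Irs2 these were Irf2bp2, Arl4d and Lnx2, at 0.396, 0.432 and 0.473, beside an SD of Irs2 itself of 0.761. For Irs1 they were Slc25a48, Fhl1 and Tubb5, at 0.191, 0.193 and 0.228, beside an SD of 0.447. For Foxo3 they were 4931406P16Rik, Tmem204 and Nr1d2, a clock repressor, at 0.156, 0.181 and 0.236, beside an SD of 0.427. None of these 9 genes was called between the groups in edgeR's test, where their adjusted p-values ranged from 0.225 to 0.983.

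Of 78 other genes of the pathway, from ligands and receptors to phosphatases and mTOR complexes, 70 were tested and 3 were called, 2 higher and 1 lower. This was 4.29%, beside 3.8% of all genes, and 14 of the 70 had an unadjusted p under 0.05, beside 21.6% of all genes. The insulin genes Ins1 and Ins2 and the substrate gene Irs4 had 0 counts in every liver. Igf1r, the receptor for IGF1, had 3 to 33 counts per liver, where Insr had 3784 to 6335. The plot of fold changes shows the members beside the 15 pathway genes of lowest p.

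**Figure D4:**
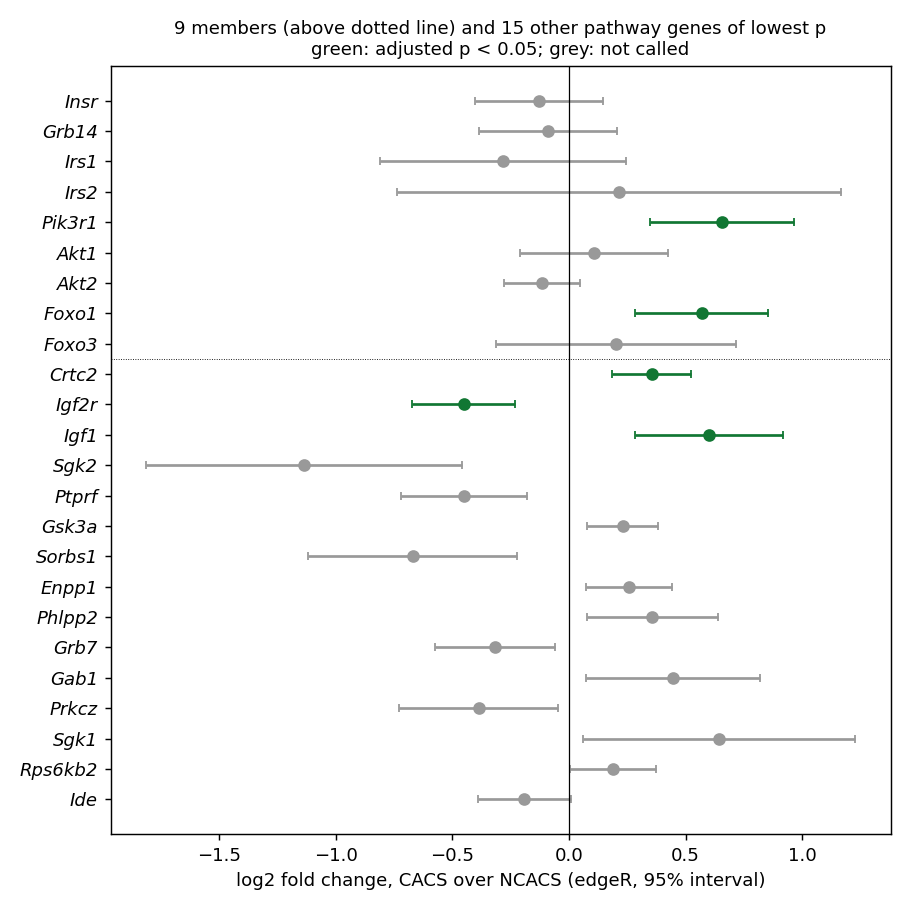
Log2 fold change of CACS over NCACS with its 95% interval from edgeR for the 9 members (above the dotted line) and 15 other pathway genes of lowest p. Green marks an adjusted p under 0.05. Pik3r1 at 0.66 and Foxo1 at 0.57 are the members that were called, and the interval of Irs2 is the widest among the members.

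Igf1, the growth factor that the liver secretes under growth hormone, rose from 491.6 ± 60.1 to 745.6 ± 133 CPM (SD, n = 5; log2 fold change 0.60, adjusted p = 0.0437 from edgeR's test). Crtc2, a coactivator that AKT signalling holds in the cytoplasm and that acts on gluconeogenic genes, rose from 44.0 ± 3.05 to 56.3 ± 2.90 CPM (log2 fold change 0.36, adjusted p = 0.0327). Igf2r, the mannose-6-phosphate receptor that clears IGF2, fell from 54.7 ± 4.82 to 40.0 ± 4.73 CPM (log2 fold change -0.45, adjusted p = 0.0359). For each of these 3 genes the groups did not overlap. Each call was lost without any one of at least 8 of the 10 mice, with adjusted p-values of at most 0.0921. The calls of Igf1 and Crtc2 were also lost without the filter on low counts (adjusted p = 0.0627 and 0.0641), and that of Igf2r with raw library totals (adjusted p = 0.0588, all from edgeR's test).
Of the rest, Sgk2, a kinase related to AKT, had the largest log2 fold change among the 15, at -1.14 (adjusted p = 0.0631). Without CACS mouse 17 it was called (-1.58, adjusted p = 0.00249, both from edgeR's test). DESeq2 and limma-voom called it on all 10 livers (adjusted p = 0.00459 and 0.0404). Ptprf, a phosphatase that acts on the receptor, was at -0.45 (adjusted p = 0.0645 in edgeR's test and 0.00979 in DESeq2). The receptor-binding adaptor Grb7 had -0.32 (adjusted p = 0.148), and Enpp1, an inhibitor of the receptor, 0.26 (adjusted p = 0.106, both from edgeR's test). The AKT substrate Gsk3a had 0.23 (adjusted p = 0.0857 in edgeR's test and 0.0204 in DESeq2). The phosphatase of AKT Phlpp2 had 0.36 (adjusted p = 0.134) and the adaptor Gab1 0.44 (adjusted p = 0.156, both from edgeR's test). For Ptprf, Enpp1 and Gsk3a too the groups did not overlap, as for 7.07% of all genes tested.

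A list of 22 genes that FOXO1 or its relatives are known to raise was read as well, and includes Insr and Irs2. One was called, Sesn3, a stress-response gene that fell from 4.17 to 2.39 CPM (log2 fold change -0.80, adjusted p = 0.0459 from edgeR's test). This was 4.55% of the list, beside 3.8% of all genes, and 8 of the 22 had an unadjusted p under 0.05, with both signs, beside 21.6% of all genes. Of these, G6pc, Pck1 and Txnip had positive log2 fold changes, of 1.31, 0.79 and 0.98, and Bcl6, Cited2, Sesn1 and Cat negative ones, of -1.17, -0.76, -0.35 and -0.65 (adjusted p between 0.0519 and 0.223 from edgeR's test). Sesn3 was no longer past the threshold without any one of the 9 mice other than CACS mouse 17 (adjusted p up to 0.0928), and it was also short of it with raw library totals (0.0643) and without the filter on low counts (0.0631, edgeR). It had 57 to 147 counts per liver. Bcl6 was at -0.72 once NCACS mouse 15 was left out. Cat passed the threshold once NCACS mouse 13 was left out (edgeR adjusted p = 0.0342), as did Sesn1 once CACS mouse 17 was (0.0494), and DESeq2 called both (0.00104 and 0.00973).

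A list of 16 genes, most of which insulin raises in liver, largely through SREBP1c, had 2 called, both lower. Scd1, the stearoyl-CoA desaturase, fell from 2422 ± 1191 to 690.0 ± 365 CPM (SD, n = 5; log2 fold change -1.81, adjusted p = 0.0388 from edgeR's test). Insig1, which retains SREBP in the endoplasmic reticulum, fell from 206 ± 68.8 to 97.8 ± 28.2 CPM (log2 fold change -1.08, edgeR adjusted p = 0.0372). Srebf1, which encodes SREBP1c and is itself induced by insulin, had a log2 fold change of 0.21 (edgeR adjusted p = 0.757), and Gpam, Me1 and Acacb of -0.59, -0.85 and -1.15 (adjusted p = 0.0529, 0.121 and 0.153). Leaving out NCACS mouse 13 brought Acacb to -0.655, and leaving out NCACS mouse 14 brought Me1 to -0.56. Gpam passed the threshold once CACS mouse 20 was left out (edgeR adjusted p = 0.0448) and under DESeq2 (0.00632). The calls were 12.5% of the list, beside 3.8% of all genes in either direction and 1.92% lower, but fits that left out 1 mouse called between 0 and 2 of the list, and the calls of Scd1 and Insig1 were each lost without any one of at least 7 of the 10 mice.

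Reads of genes on opposite strands can be mixed where the strand setting is not known, which the sources used here do not give. Foxo1 shares 674 exon bases with the antisense gene Gm20402, which had 0 counts in every liver. Irs1 shares 2822 exon bases with Gm9747 on the opposite strand, also at 0 counts, and Irs2 shares 162 with 9530052E02Rik, at 0 to 5 counts. These low counts do not settle whether reads in the shared bases were lost, because unstranded counting can leave such reads out of both genes. Pik3r1 shares no exon base with another annotated gene.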

How the data were processed

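RNA from livers of 5 NCACS and 5 CACS KL mice was sequenced from TruSeq stranded mRNA libraries as single-end reads. Per the labels and the paper's methods, the authors aligned reads to GRCm38 with STAR 2.4.1d, counted them per gene with HTSeq 0.6.1 and deposited raw counts per Ensembl gene without normalization. Symbols, positions and merged exon lengths were taken from GENCODE M21 (GRCm38), where 1081 identifiers had no entry. Promoter windows came from RefSeq on GRCm38.p6. Groups, mouse numbers and weight changes came from the sample labels.

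Tests ran in R 4.3.3 (edgeR 4.0.16, limma 3.58.1, DESeq2 1.42.0). The main one was the quasi-likelihood test of edgeR after filterByExpr and TMM scaling, with Benjamini-Hochberg adjustment over 14143 genes. Intervals are 95% and use the fit's degrees of freedom. Log2 CPM used a prior count of 2. Single members were also tested by an exact permutation of mean log2 CPM over all assignments of mice. Any pair of livers in a group differed by a chi-square of at least 50.1 per degree of freedom, so no library was counted as a duplicate. Scripts were tested on simulated data.

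Members and lists were chosen with earlier results of these data known. Named genes were the members, the 15 pathway genes and 10 target genes of lowest p, PI3K subunits and list genes singled out after their values were seen, and genes of similar profile. Alternatives were DESeq2, limma-voom, RLE factors, unscaled totals, dropping the filter, a minimum of 10 counts per liver, and leaving out each mouse. The batch correction of the study, made over further libraries, was not used here. Since labels name separate mice and no more, the mouse was the unit of every test. P-values from the fits set the group difference against the spread between mice within groups, which the fits adjust using the spread of other genes. One allele of the mice and 1 gene of the target lists are not reported here.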

Additional observations from a re-analysis of the deposited data

Results flagged for a closer look

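Each member was examined in each group of 5 mice for a liver far from the rest, in 18 combinations, and 1 passed Dixon's 95% critical value of 0.71. By chance about 1 in 20 would do so. This was Foxo1 in NCACS mouse 13, which was low, with a gap to the nearest liver of 0.792 of the group's range on the log2 CPM scale. Foxo1 stood at 25.6 CPM in that mouse and at 36.9 to 40.7 CPM in the other NCACS livers. Without that mouse the log2 fold change of Foxo1 was 0.47 (edgeR adjusted p = 0.0395). Mouse 13 also differed most from the other NCACS livers across the counted genes, not in Foxo1 alone. Its pairs had a chi-square of 227.4 to 392.5 per degree of freedom, and NCACS pairs without it 50.1 to 191.3.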

How the results depend on the processing

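No paired analysis was possible because no mouse number occurs in both groups. The direction of all 9 members was kept under DESeq2, limma-voom, RLE factors, raw library totals and both filters. Pik3r1 stayed past the threshold under all 6. Foxo1 stayed past it under 5 and did not with raw library totals (log2 fold change 0.58, adjusted p = 0.0531), where 1 member was called. The other 7 members stayed short of it. The cause was not tested for these and the next changes.

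DESeq2 called 1386 genes (672 higher, 714 lower) against 538 in edgeR's test. It called 7 of the other pathway genes and 9 target genes, 4 of them in the list mostly raised by insulin. Without a filter, which tests more genes, 173 genes were higher and 1 pathway gene was called. RLE factors and at least 10 counts in every liver each gave 5 target genes, against 3.

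With each mouse left out in turn, which leaves fewer samples, the genes called ranged from 178 to 519, those higher from 79 to 246 and those lower from 96 to 273. Members called ranged from 0 to 1, pathway genes from 0 to 4, target genes from 0 to 3 and those of the list mostly raised by insulin from 0 to 2. The log2 fold change ranged from 0.57 to 0.74 for Pik3r1, past the threshold in 4 of 10 fits, and from 0.47 to 0.61 for Foxo1, past it in 1. It crossed 0 for Grb14 (-0.18 to 0.0061) and Irs2 (-0.15 to 0.51). The ratios of paired members moved by less than the spread between livers.

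With 127 to 573 counts per liver, Irs2 was limited by the spread between mice more than by counting error.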
